A study of Mus musculus with 12 samples.

Results

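Rab GTPases and the SNARE genes of vesicle fusion were followed in single blastomeres of 2-cell mouse embryos, to set the differences between embryos beside those between the sister cells of one embryo. Members were all non-control array probes named for a numbered Rab gene, a syntaxin (Stx), a syntaxin-binding protein (Stxbp), a vesicle-associated membrane protein (Vamp) or Snap23, Snap25, Snap29 and Snap91. This name rule, which used no measured value, gave 86 of the 27962 gene names on the array, carried by 167 probes. The names covered 55 Rab genes, 14 syntaxins, 7 syntaxin-binding proteins, 6 Vamp genes and 4 Snap genes. Snap91 fell under the rule by its symbol, but it encodes the clathrin adaptor AP180 and is not a SNARE.

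Rab proteins are small GTPases that sit on the membrane of a particular compartment when bound to GTP and recruit the motors, tethers and fusion factors that give a vesicle its destination. SNAREs carry out the fusion itself: a Vamp-type SNARE on the vesicle zips up with syntaxins and SNAP-25-type proteins on the target membrane, and syntaxin-binding proteins of the Munc18 kind guide that assembly. In the mouse egg such fusion releases the cortical granules after sperm entry, and in the cleaving embryo it adds the new membrane that separates the daughter cells.

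All 12 samples were single blastomeres from naturally bred CF-1 embryos taken about 36 h after coitus, and none was treated or mutant. The zona was slit with a glass needle, both blastomeres of an embryo were pressed out, and the total RNA of each was amplified by 2 rounds of linear amplification before hybridisation to a separate array. Experiment 2 comprised cells 2 and 1 of pairs D, G and H, and experiment 1 comprised cells 2 and 1 of pairs D, I and L, where a pair is the 2 sisters of 1 embryo and the letter D in the 2 experiments is not the same embryo. A cell number only names a sister, and the labels do not say what it stood for. Sister cells lay on the same slide in every pair, so any effect of a slide is shared by sisters and adds to the differences between embryos on different slides. The experiments also differed in the scanned channel, which was green in experiment 2 and red in experiment 1 although the labels name Cy3, a green dye, throughout, so that experiment, dye and slide cannot be told apart.

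The arrays differed widely in how much they detected, with 22.1% to 78.8% of spots well above background. Of the 12 oocyte and early embryo markers on the array, 11 to 12 were well above background in the cells of experiment 2 and 10 to 12 in those of experiment 1. Cumulus and granulosa markers had a low summed linear signal, 0.698 to 1.59 in experiment 2 and 0.688 to 1.24 in experiment 1, although 2 to 11 of the 12 were well above background in the cells of experiment 2 and 1 to 4 in those of experiment 1. Cyp19a1 was so on 11 arrays and Tnfaip6 on none. Markers of stroma and oviduct epithelium, the tissue from which embryos were flushed, stood apart between the experiments in their summed signal. The stroma list summed to 0.574 to 1.01 in the cells of experiment 2, against 11.4 to 69.9 in those of experiment 1, and the oviduct list to 0.577 to 1.98 against 8.31 to 60.0. The values are given again below beside the comparison they touch.

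Promoters are shown for members on which the results turn: Stx7, which differed between embryos, Snap91, whose sisters were more than 1.5-fold apart in all 6 pairs, Rab1b and Rab35, which were lower in experiment 2, and Rab5a, which was higher there. Each runs from 250 bases before to 50 bases after the annotated start, 5′ to 3′ on the gene's strand, from RefSeq on GRCm38.p6. Capitals mark matches to the TATA box sequence TATAAA, to the CCAAT box and to the GC box sequence GGGCGG, each searched on both strands.
Stx7 (chr10:24149039-24149338, plus strand): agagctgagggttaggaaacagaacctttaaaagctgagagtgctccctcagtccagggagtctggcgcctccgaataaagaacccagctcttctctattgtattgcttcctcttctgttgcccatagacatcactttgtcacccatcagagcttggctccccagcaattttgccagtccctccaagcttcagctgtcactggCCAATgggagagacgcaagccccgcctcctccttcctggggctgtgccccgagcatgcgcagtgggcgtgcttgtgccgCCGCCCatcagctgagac
Snap91 (chr9:86880659-86880958, minus strand): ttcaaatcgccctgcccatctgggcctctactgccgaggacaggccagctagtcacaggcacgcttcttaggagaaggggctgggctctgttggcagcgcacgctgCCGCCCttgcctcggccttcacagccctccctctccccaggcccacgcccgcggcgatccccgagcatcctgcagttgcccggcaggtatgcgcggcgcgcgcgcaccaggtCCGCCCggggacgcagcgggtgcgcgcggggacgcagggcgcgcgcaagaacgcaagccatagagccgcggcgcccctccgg
Rab1b (chr19:5106947-5107246, minus strand): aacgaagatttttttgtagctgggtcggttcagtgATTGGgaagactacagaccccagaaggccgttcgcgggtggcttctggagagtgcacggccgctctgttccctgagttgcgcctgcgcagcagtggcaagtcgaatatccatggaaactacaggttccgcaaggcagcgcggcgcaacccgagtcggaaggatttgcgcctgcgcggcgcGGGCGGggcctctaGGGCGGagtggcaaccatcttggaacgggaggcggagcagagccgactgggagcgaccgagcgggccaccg
Rab35 (chr5:115631737-115632036, plus strand): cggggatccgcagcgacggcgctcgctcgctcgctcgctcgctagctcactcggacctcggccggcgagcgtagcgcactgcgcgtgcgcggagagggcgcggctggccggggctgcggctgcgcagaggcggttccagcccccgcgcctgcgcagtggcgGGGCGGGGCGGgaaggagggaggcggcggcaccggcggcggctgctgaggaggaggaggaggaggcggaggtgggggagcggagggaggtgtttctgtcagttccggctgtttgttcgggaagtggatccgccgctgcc
Rab5a (chr17:53478984-53479283, plus strand): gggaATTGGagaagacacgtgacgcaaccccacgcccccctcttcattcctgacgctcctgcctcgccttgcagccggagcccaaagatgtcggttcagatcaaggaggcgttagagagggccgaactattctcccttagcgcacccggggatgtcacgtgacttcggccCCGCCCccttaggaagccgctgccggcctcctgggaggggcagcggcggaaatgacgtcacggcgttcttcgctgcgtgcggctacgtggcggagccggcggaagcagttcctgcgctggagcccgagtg

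None of the 5 promoters held TATAAA, and CCAAT was found in those of Stx7, Rab1b and Rab5a. GGGCGG was found in these 5, including 2 overlapping copies in Rab35, but not in the promoter of Snap23, another member that was higher in experiment 2. A promoter was on hand for 71 of the 86 member genes, and 49 of these (69.0%) held GGGCGG, 32 (45.1%) CCAAT and 4 (5.63%) TATAAA. Over all 27025 genes with a promoter the shares were 35.9%, 37.9% and 14.2%. The members' promoters held a median of 22 CpG dinucleotides, against 7 over all genes. Among the 27 member genes with a probe well above background in all 12 cells the median was 23, and among the 11 detected in fewer than 6 cells it was 17. A match is a description of the letters and not evidence that a factor binds.

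Most of the trafficking machinery was detected. A probe was tested when its signal was well above background in at least 6 of the 12 cells, which 103 of the 167 member probes (61.7%) met, against 40.6% of all probes. These stood for 70 of the 86 genes, and 31 genes had a probe well above background in all 12 cells. The share of member probes detected was highest in pair D of experiment 2, at 76.6% in cell 2 and 86.8% in cell 1, and lowest in cell 1 of pair D of experiment 1, at 32.9%. In each cell it lay above the share of all probes, as the plot of detection by blastomere shows.

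**Figure D1:**
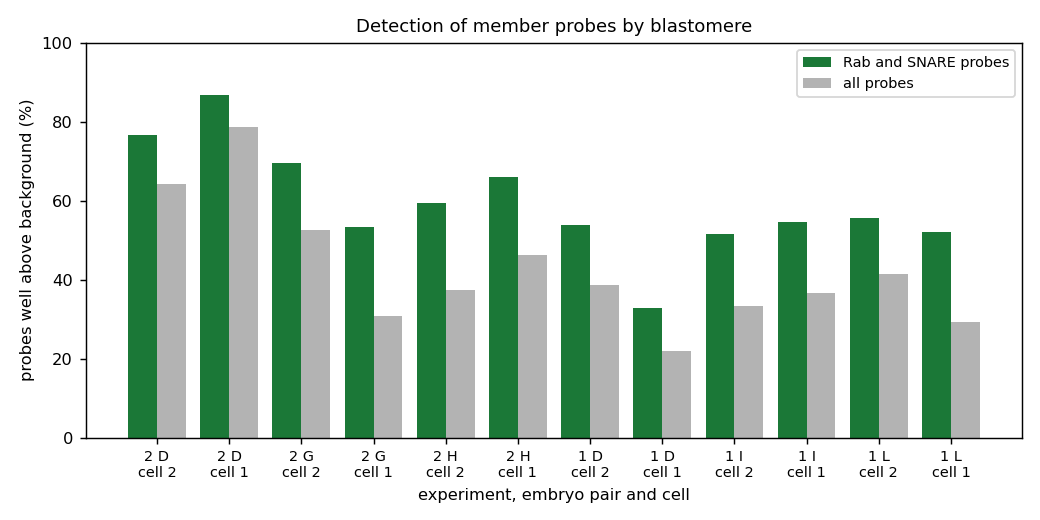
Percentage of probes well above background in each of the 12 blastomeres, for the 167 Rab and SNARE probes (green) and for all probes (grey). The member share ran from 32.9% to 86.8% and was above that of all probes in every cell.

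By role, genes seen in all 12 cells included 8 of 16 Rabs of early and recycling endosomes (Rab4a, Rab5a, Rab5c, Rab11a, Rab11b, Rab14, Rab21 and Rab35), 6 of 12 Rabs of exocytosis (Rab3a, Rab3b, Rab3d, Rab8b, Rab10 and Rab27a) and 4 of 7 Rabs of late endosomes and lysosome-related organelles (Rab7, Rab9, Rab32 and Rab38). The 4 of 12 Rabs of the secretory route through the Golgi were Rab1, Rab1b, Rab2 and Rab6. Among the SNAREs, they were the endosomal syntaxins Stx6, Stx8 and Stx12, the plasma membrane syntaxin Stx4a, Vamp4 of the trans-Golgi network, Snap23, which takes the place of SNAP-25 outside neurons, and Snap29. Detection depends on the probe as well as the gene, and 12 genes with a probe seen in all cells had another seen in fewer than 6.

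At the other end, 16 genes had no probe well above background in 6 or more cells. Several are best known from neurons or polarised epithelia: Rab3c and Rab26 of regulated secretion, the epithelial Rab17 and Rab25, and the synaptic vesicle SNAREs Vamp1 and Vamp2. Rab39b and the syntaxin Stx11 were well above background in no cell. The rest included Rab4b, Rab9b, Rab13, Rab27b, Rab31, Rab36 and Rab39. For these the arrays give a bound and not a level.

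Signals are given as log2 of the processed signal over the 75th percentile of the probes seen on all arrays of the same cell, so that 0 is that percentile. Values below the floor of -4.12 were set to it, and values of different probes are not compared as levels. The 6 members with the highest mean signals, which depend on the probe too, were Rab1b, Rab35, Rab3d, Rab6, Rab7 and Rab10, and none of them passed a test between embryos or between sisters. Rab1b and Rab35 differed between the experiments and are described there. Rab6, which directs traffic at the Golgi, was at 0.90 in cell 2 and 1.46 in cell 1 of pair D, 0.93 and 1.18 in those of pair G and 1.15 and 1.36 in those of pair H of experiment 2. In experiment 1 it was at 0.21 and 0.98 in pair D, 0.62 and 0.28 for pair I and 1.41 and 1.22 in those of pair L, in the same order. The 2 experiments overlapped for Rab6 (difference, experiment 2 minus experiment 1, 0.38, SE 0.26, adjusted p = 0.48 in limma).

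Rab3d, a Rab of secretory granules, lay between 0.85 and 1.67 in the 6 cells of experiment 2, with a median of 1.13, and between 0.82 and 1.73 in those of experiment 1, with a median of 1.27. Its ranges almost coincided. Rab7, of late endosomes, lay between -0.95 and -0.08 with a median of -0.55 in experiment 2, against -0.54 to 0.72 with a median of -0.10 in experiment 1. Rab10, of exocytic and recycling vesicles, lay between -1.17 and -0.01 with a median of -0.42 in experiment 2, against -0.63 to 0.35 with a median of -0.19 in experiment 1. For both the experiments overlapped.

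The main question was whether the machinery of an embryo differs more from that of other embryos than that of 1 sister differs from the other. Between embryos of the same experiment, 2 of the 103 tested member probes passed (adjusted p below 0.05, limma moderated F test over all 16694 tested probes): Stx7 and Rab40c. Over all tested probes 1.4% passed, so 1.94% of the members is close to that background. At an unadjusted p below 0.05 the shares were 28.2% of member probes and 29.8% of all probes.

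Stx7 encodes a syntaxin that drives fusion of late endosomes with one another and with lysosomes. In experiment 2 it was at -1.12 in cell 2 and -1.43 in cell 1 of pair D, at the floor of -4.12 in both cells of pair G, and at -1.16 in cell 2 and -1.54 in cell 1 of pair H. In experiment 1 it was at -1.54 and -1.99 in cells 2 and 1 of pair D, -1.74 and -1.58 in those of pair I, and -2.31 and -2.0 in those of pair L. Both sisters of pair G thus lay below every other cell, and the other 10 cells fell within a span from -2.31 to -1.12. Pair D lay at least 2.85 log2 units above pair G. Both cells of pair G were set to the floor, and 1 of 2 was well above background. The F test over both experiments gave an adjusted p of 0.026 in limma, and that of experiment 2 alone gave 0.0443. Sisters differed by 0.27 log2 units on average over the 6 pairs, and cells of different embryos of an experiment by 1.16. In both averages the differences that involve pair G were set by the floor and not measured.

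Pairs H and G shared a slide, and within it alone pair H lay at least 2.77 log2 units above pair G, again set by the floor, with an adjusted p of 0.185 in limma. The Stx7 call was lost when either cell of pair H of experiment 2 was left out (adjusted p = 0.0887 without cell 1 and 0.0926 without cell 2). Scaling to the 75th percentile of all probes gave a smaller difference between pairs D and G, 1.01 against 2.85 log2 units, with an adjusted p of 0.0966.

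Rab40c belongs to the Rab40 proteins, which carry a SOCS box and act in ubiquitin ligases. In experiment 2 its probe was at -0.51 and -1.12 in cells 2 and 1 of pair D, -0.17 and -1.15 in those of pair G, and -2.36 and -1.68 in those of pair H. In experiment 1 it was at -1.23 and -1.75 in cells 2 and 1 of pair D, -1.38 and -1.43 in those of pair I, and at the floor in both cells of pair L. Pair L lay below all other cells, and within experiment 2 both cells of pair H lay below those of pairs D and G. Pair I lay at least 2.72 log2 units above pair L. Both cells of pair L were set to the floor, and 1 of 2 was well above background. The F test over both experiments gave an adjusted p of 0.0461 in limma, and that of experiment 1 alone gave 0.141.

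Pairs I and L shared a slide, and within that slide alone the Rab40c difference, still 2.72, gave an adjusted p of 0.239. The Rab40c call was lost in 15 of 23 alternatives, among them leaving out any 1 cell of pairs D and H of experiment 2 or of pairs D and I of experiment 1 (adjusted p of 0.0588 to 0.131), and the difference was 1.07 with normexp background correction. The second Rab40c probe was above background in 5 cells and was not tested. It was at -2.70 in cell 2 of pair L, where the first probe stood at the floor. Levels of different probes are not compared, so whether the 2 probes disagreed in that cell was not tested.

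**Figure D2:**
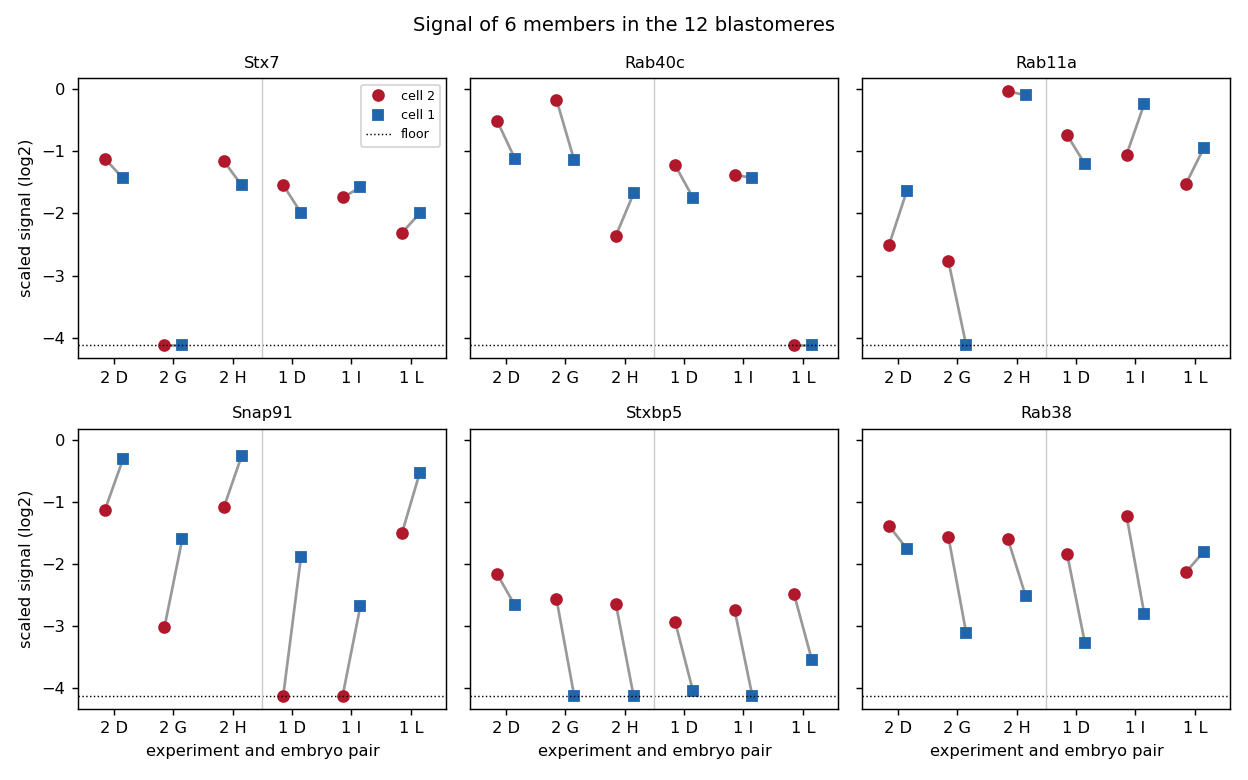
Scaled log2 signal of 6 members in the 12 blastomeres, by experiment and embryo pair, with cell 2 as red circles, cell 1 as blue squares, sisters joined, and the floor of -4.12 dotted. Stx7 is at the floor in both sisters of pair G of experiment 2 and Rab40c in both sisters of pair L of experiment 1, while Snap91 is lower in cell 2 of all 6 pairs.

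Of the 6 other member probes with the smallest p between embryos, none passed. The probe of Rab11a, the Rab of recycling endosomes, had the widest gap among them. In experiment 2 it was at -2.51 and -1.64 in cells 2 and 1 of pair D, -2.77 and -4.12 in those of pair G, and -0.03 and -0.10 in those of pair H, and in experiment 1 it lay between -1.53 and -0.23. Pair H minus pair G was 3.38 log2 units, and the F test over both experiments gave an adjusted p of 0.0692 in limma. This gap was not shared by the other 2 Rab11a probes, which lay between -4.12 and -2.90 in all cells of experiment 2.

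Stx3, an apical plasma membrane syntaxin, and Stxbp2, also called Munc18-2, had 1 pattern in common. Stx3 was at -2.74 and -2.61 in cells 2 and 1 of pair D of experiment 2, at -3.71 in cell 2 of pair G and at the floor in the other 3 cells of that experiment. Stxbp2 was at -2.75 in both cells of pair D and -3.39 in cell 2 of pair G. The adjusted p were 0.0538 for Stx3 and 0.0827 for Stxbp2 (limma F test). Pair D minus pair H, 1.45 for Stx3 and 1.37 for Stxbp2, depended on the scale: it was 0.037 and 0.016 with the 75th percentile of all probes, and 4.73 and 5.43 with the lower common floor.

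A probe of Snap29, a SNARE of autophagosome fusion, was also highest in pair D, at -2.69 and -3.00 in cells 2 and 1 (adjusted p = 0.0805, limma F test). These cells had the most probes of any kind above background, 64.3% in cell 2 and 78.7% in cell 1, against 30.9% to 52.6% in pairs G and H. The part of overall detection in the pair D values was not tested.

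Among the 37 member probes seen in all 12 cells, the embryo with the highest mean in experiment 2 was pair H for 23 probes (62.2%), pair D for 11 and pair G for 3. Over all 5858 probes seen in all cells the shares were 28.7% for pair H, 43.7% for pair D and 27.6% for pair G. In experiment 1 pair L was highest for 19 of the 37 (51.4%), against 42.7% over all such probes. These counts are descriptions of 3 embryos each.

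Values follow for 3 of the members that were highest in pair H, chosen after their values were seen. Rab21, of early endosomes, was at -1.68 and -1.38 in cells 2 and 1 of pair H, against the floor in both cells of pair G, and -1.53 and -4.12 in those of pair D. Rab9, of transport from late endosomes to the Golgi, averaged 0.37 in pair H, -1.06 in pair D and -1.21 in pair G. Stx12, of recycling endosomes, averaged -0.26 in pair H, -0.95 in pair D and -1.65 in pair G. None of the 3 passed between embryos (adjusted p of 0.25, 0.44 and 0.42 in the limma F test), and for Rab21 the sisters of pair D were as far apart as pairs H and G.

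**Figure D3:**
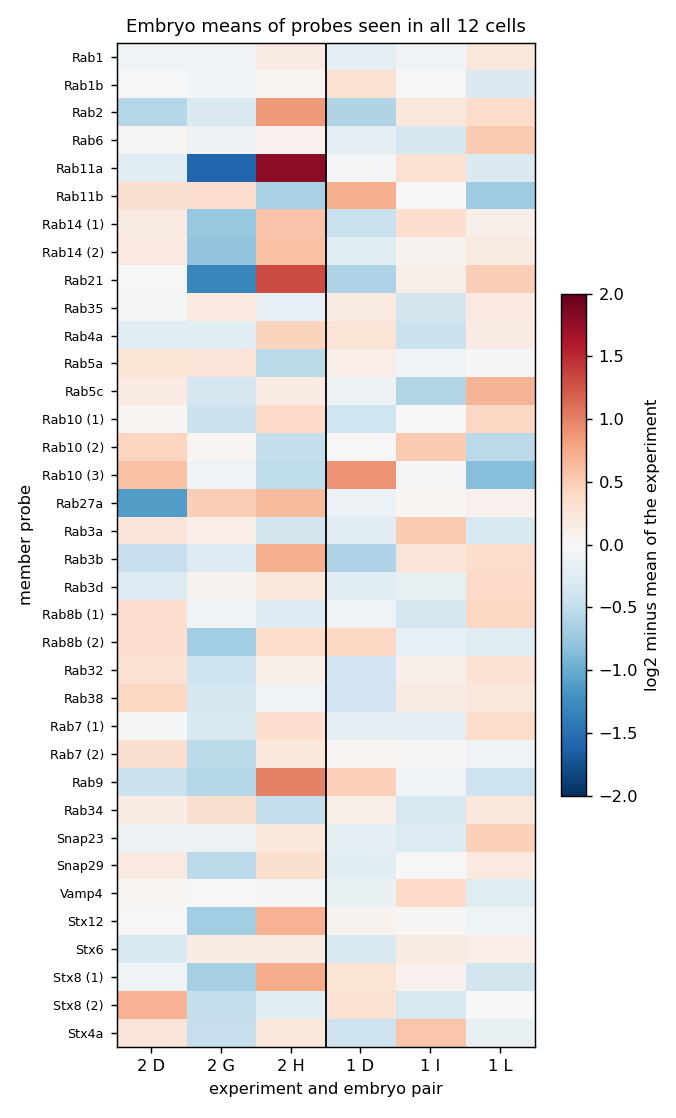
Embryo means of 36 of the 37 member probes well above background in all 12 cells, as log2 minus the mean of the 3 embryos of the same experiment, with red higher and blue lower. Pair H of experiment 2 holds the highest mean for 22 of those plotted, and Rab11a has the strongest contrast between pairs H and G.

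Over the 103 tested member probes as a group, the root mean square difference between sisters was 0.78 ± 0.073 log2 units (SD, n = 6 pairs). Between cells that came from different embryos of an experiment it was 0.98 ± 0.16 (SD, n = 24 pairs of cells, which share cells), 1.25 times the sister value. The same distances over all 16694 tested probes were 0.79 ± 0.14 and 0.96 ± 0.16. The sister distance over members was 0.68 in pair H, 0.75 in pair D and 0.84 in pair G of experiment 2, and 0.72 in pair I, 0.84 in pair D and 0.85 in pair L of experiment 1. Between embryos it averaged 1.05 in experiment 2 and 0.90 in experiment 1, against 0.76 and 0.80 between sisters.

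Probe by probe, sisters were closer than cells of different embryos for 84 of the 103 member probes (81.6%), against 74.6% of all tested probes. Among the 37 seen in all cells the count was 27 (73.0%), against 69.8%. Between 4.85% and 47.6% of the tested member probes stood at the floor in a cell. Any 2 cells at the floor, sisters or not, count as equal, which enters all these distances. Probes seen in all cells could stand there too, as Rab21 did in pair G of experiment 2. The part of the floor in the comparison of sisters with embryos was not tested. The mean square between embryos exceeded that between sisters with a median ratio of 2.02 over members and 2.12 over all tested probes.

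**Figure D4:**
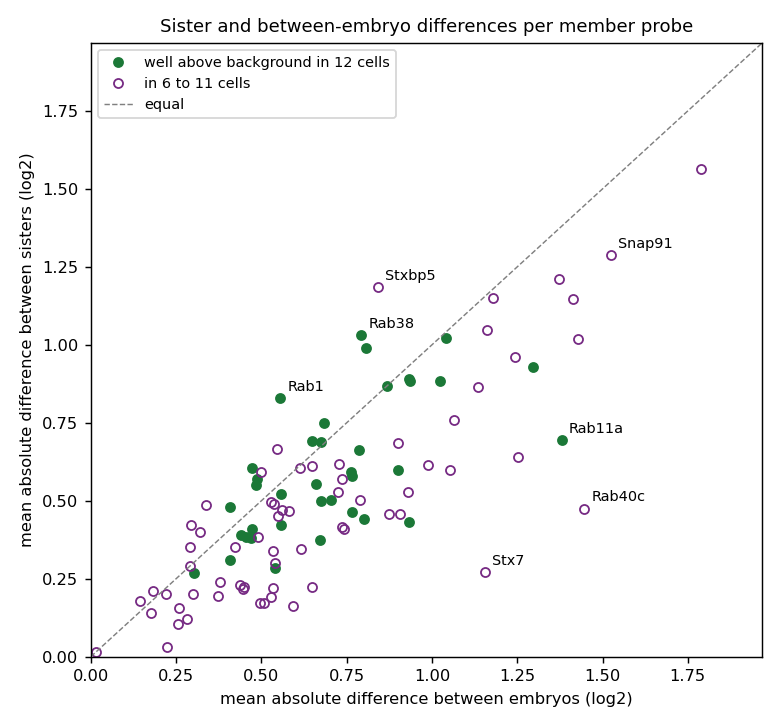
Each point is 1 of the 103 tested member probes, with the mean absolute log2 difference between cells of different embryos of an experiment on the x axis and that between sisters on the y axis. Filled points were well above background in all 12 cells, and 84 of 103 points lie below the line of equality, Stx7 and Rab40c far below it and Stxbp5, Rab38 and Rab1 above it.

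Between cell 2 and cell 1 of the same embryo no member probe passed, and 0.0% of all tested probes did (limma with the embryo as a block). At an unadjusted p below 0.05 there were 6 of 103 member probes (5.83%), against 4.41% of all probes. Values follow for the 4 member probes with the smallest p.

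Snap91 was lower in cell 2 of all 6 pairs. In experiment 2 it was at -1.12 in cell 2 and -0.32 in cell 1 of pair D, -3.02 and -1.60 in those of pair G, and -1.09 and -0.26 in those of pair H. In experiment 1 it was at the floor in cell 2 and at -1.88 in cell 1 of pair D, at the floor and -2.67 in the cells of pair I, and at -1.50 and -0.53 in those of pair L. The difference, cell 2 minus cell 1, averaged -1.29 log2 units (SE 0.21, adjusted p = 0.674 in limma), and sisters were 0.80 to 2.24 units apart. Across pairs the 2 sets of cells overlapped, since cell 2 of pairs D and H in experiment 2 lay above cell 1 of 3 other pairs. The second Snap91 probe was above background in 2 cells and was not tested.

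Stxbp5, or tomosyn, binds syntaxin and SNAP-25 in place of a Vamp and so holds back fusion. Its first probe was higher in cell 2 of all 6 pairs: in experiment 2 at -2.16 against -2.66 in cell 1 of pair D, -2.56 against -4.12 for pair G, and -2.64 against -4.12 for pair H. In experiment 1 it was at -2.93 in cell 2 against -4.04 in cell 1 of pair D, -2.74 against -4.12 for pair I, and -2.48 against -3.54 for pair L. The difference averaged 1.19 log2 units (SE 0.16, adjusted p = 0.674 in limma). The second probe was higher in cell 2 of 5 pairs, and at the floor in both cells of pair D of experiment 1, with a mean difference of 0.61 (SE 0.19, adjusted p = 0.674). The third tested probe was higher in cell 2 of 3 pairs and lower in 2, with a mean difference of 0.29 (SE 0.31, adjusted p = 0.772).

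Rab38, of melanosomes and other lysosome-related organelles, was higher in cell 2 of 5 pairs. In experiment 2 it was at -1.39 in cell 2 and -1.75 in cell 1 of pair D, -1.56 and -3.11 in those of pair G, and -1.59 and -2.51 in those of pair H. In experiment 1 it was at -1.84 and -3.28 in pair D, -1.22 and -2.81 for pair I, and -2.13 and -1.80 in those of pair L, the one pair with the other sign. The mean difference was 0.92 log2 units (SE 0.29, adjusted p = 0.674 in limma).

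Snap91 and Rab1 were the 2 member probes (1.94%) whose sisters were more than 1.5-fold apart in all 6 pairs, against 0.827% of all tested probes. Rab1, which is Rab1a in current naming and acts between the endoplasmic reticulum and the Golgi, changed sign among pairs. Cell 2 minus cell 1 was -0.66, 0.59 and -1.22 log2 units in pairs D, G and H of experiment 2 and 1.32, 0.59 and 0.61 in pairs D, I and L of experiment 1. The direction was the same in every pair for 3 member probes (2.91%), against 1.47% of all tested probes: Snap91, Stxbp5 and Rab32, a Rab of lysosome-related organelles that was lower in cell 2 with sisters 0.04 to 1.29 log2 units apart. The effect of cell number did not pass as different between experiments for any member probe, and 0.0% of all probes passed that interaction. At an unadjusted p below 0.05 there were 9 of 103 members (8.74%), against 5.27% of all.

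Between the experiments 8 member probes passed: 3 were higher in experiment 2 (2.91% of members, against 3.95% of all tested probes) and 5 were lower (4.85%, against 4.15%). The experiments share no embryo, slide or scanned channel, so these differences cannot be assigned to the embryos. The median difference, experiment 2 minus experiment 1, was 0.25 log2 units over members and 0.19 over all tested probes. With normexp background correction both turned, to -0.62 over members and -0.76 over all tested probes.

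The probes that were lower in experiment 2 belonged to 4 genes. Rab1b, a close relative of Rab1 in transport out of the endoplasmic reticulum, averaged -0.71 ± 0.17 in experiment 2 and 1.67 ± 0.33 in experiment 1 (SD, n = 6 cells each). Its values were -0.45 and -0.95 in cells 2 and 1 of pair D, -0.78 and -0.75 in those of pair G and -0.64 and -0.69 in those of pair H, against 1.77 and 2.19 in pair D, 1.79 and 1.53 for pair I and 1.20 and 1.56 in those of pair L. The groups did not overlap, and experiment 2 was 5.22-fold lower (difference -2.38, SE 0.20, adjusted p = 6.85e-05 in limma with embryo as a random block). Rab1 and Rab1b are close in sequence, and whether their probes cross-hybridise was not tested. The second Rab1b probe gave a difference of -2.31 (SE 0.37, adjusted p = 0.00341), also without overlap.

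Rab35, which returns receptors from endosomes to the surface and acts at the bridge between dividing cells, was at 2.58 and 2.09 in cells 2 and 1 of pair D, 2.28 and 2.87 in those of pair G and 2.52 and 1.92 in those of pair H of experiment 2. In experiment 1 it was at 3.94 and 3.61 in pair D, 3.58 and 2.92 for pair I and 3.71 and 3.92 in those of pair L. The groups did not overlap, although cell 1 of pair G of experiment 2 came close to cell 1 of pair I of experiment 1. The difference was -1.24 (SE 0.27, adjusted p = 0.0141 in limma), and without cell 1 of pair L of experiment 1 the adjusted p was 0.0567.

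Rab3b, a Rab of regulated secretion, averaged -1.67 ± 0.62 in experiment 2 and 0.16 ± 0.57 in experiment 1 (difference -1.83, SE 0.37, adjusted p = 0.0103 in limma). Its groups overlapped, since pair H of experiment 2 was at -0.72 and -1.16 and cell 2 of pair D of experiment 1 at -0.83. A probe of Stx4a, a syntaxin of the plasma membrane, averaged -2.87 ± 0.42 in experiment 2 and -1.47 ± 0.65 in experiment 1 (difference -1.40, SE 0.37, adjusted p = 0.0394). Cell 1 of pair D of experiment 1, at -2.62, lay among the cells of experiment 2. The other Stx4a probe differed in the opposite direction, by 0.43, and did not pass (adjusted p = 0.68). The Stx4a call was lost in 16 of 21 alternatives, with adjusted p up to 0.113 when 1 cell was left out, cell 1 of pair L of experiment 1.

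The 3 genes that were higher in experiment 2 were each separated without overlap. Rab5a, the Rab of early endosome fusion, was at -1.86 and -1.57 in cells 2 and 1 of pair D, -2.0 and -1.48 in those of pair G and -3.13 and -1.93 in those of pair H, against -3.58 and -3.49 in pair D, -3.38 and -4.12 for pair I and -3.41 and -3.99 in those of pair L. The difference was 1.67 (SE 0.34, adjusted p = 0.011 in limma), and the other 2 Rab5a probes were not tested.

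Snap23 averaged -1.56 ± 0.18 in experiment 2 and -2.89 ± 0.46 in experiment 1 (difference 1.33, SE 0.24, adjusted p = 0.00641 in limma). Its lowest cell in experiment 2 was at -1.77 and its highest in experiment 1 at -2.13. The other 2 Snap23 probes gave 0.41 and 0.35 and did not pass (adjusted p of 0.55 and 0.39). Vamp4 averaged -1.44 ± 0.32 in experiment 2 and -2.67 ± 0.50 in experiment 1 (difference 1.24, SE 0.32, adjusted p = 0.0339), with -1.88 as its lowest cell in experiment 2 and -2.10 as its highest in experiment 1. The second tested Vamp4 probe gave 0.11 and did not pass (adjusted p = 0.74). The Vamp4 call was lost in 11 of 21 alternatives, among them leaving out cell 2 of pair G or cell 1 of pair H of experiment 2, or either cell of pair D or cell 1 of pair I of experiment 1 (adjusted p of 0.0504 to 0.078).

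**Figure D5:**
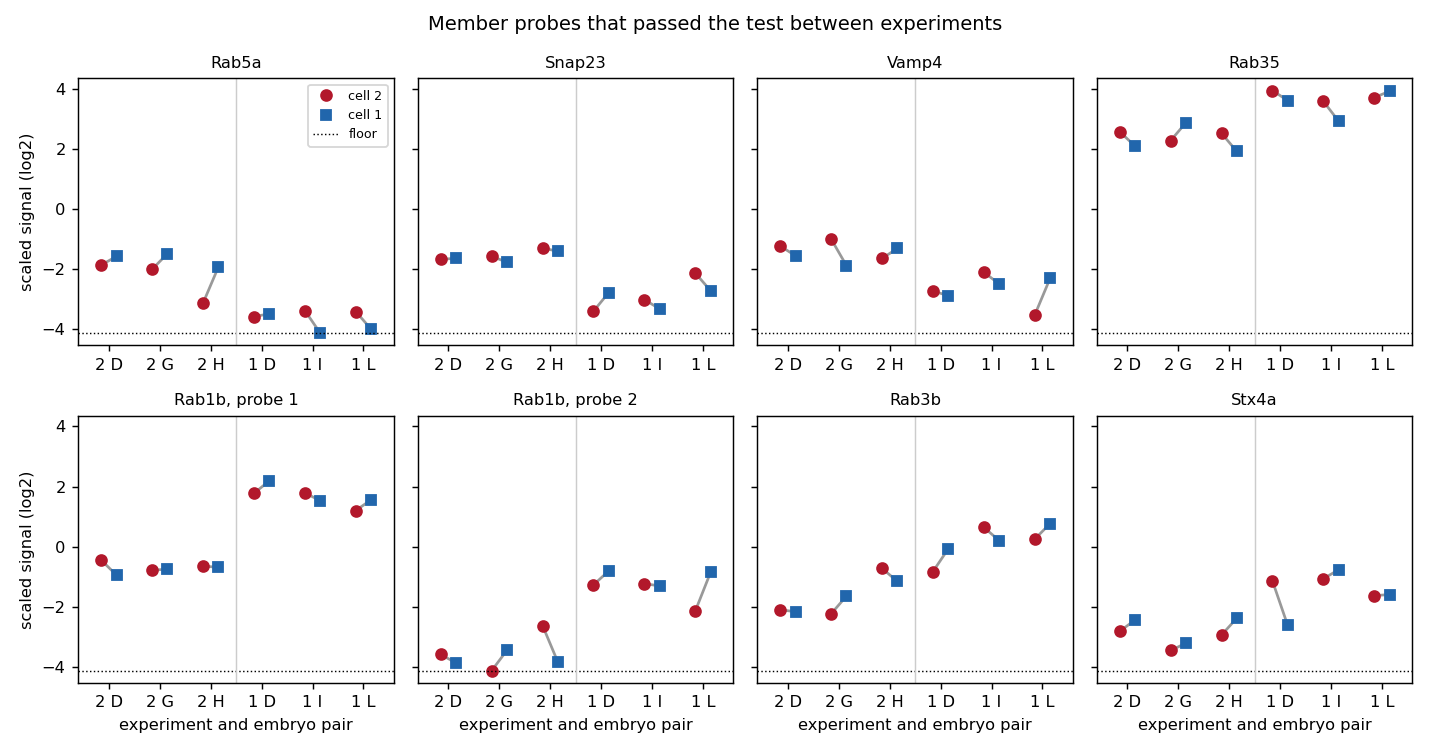
Scaled log2 signal of the 8 member probes that passed between experiments, in the 12 blastomeres, with cell 2 as red circles, cell 1 as blue squares and the floor dotted. Rab5a, Snap23 and Vamp4 are higher in experiment 2, and both Rab1b probes, Rab35, Rab3b and Stx4a are lower there.

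In 3 member probes (2.91%) all cells of experiment 2 lay above all cells of experiment 1, against 3.7% of all tested probes, and in 3 (2.91%) they lay below, against 3.97%. Stroma markers moved with the experiments too, with 8 of 9 tested lower in experiment 2, as were 5 of 9 oviduct markers. These 5 were Ovgp1 and the keratins Krt7, Krt8, Krt18 and Krt19. Epcam, Pax8 and Cdh1 differed the other way, by 0.62, 0.54 and 0.11, and Foxj1 by -0.21, and none of them passed. Muc1 was well above background in no cell. The stroma marker Postn differed by 0.11 and did not pass. Lgals1 averaged -3.09 in experiment 2 and 3.79 in experiment 1, Vim -3.40 and 1.34, and the oviduct glycoprotein Ovgp1, at the floor in every cell of experiment 2, 1.93 in experiment 1. Of the macrophage markers, 1 of 6 tested passed, Lyz2, at -3.97 in experiment 2 and 4.18 in experiment 1. The macrophage list summed to 0.574 to 0.775 in the cells of experiment 2, against 4.72 to 232.0 in those of experiment 1. Lyz2, at 7.77, and the untested Emr1, at 1.79, and C1qc, at 1.59, were highest in cell 1 of pair L. C1qa, C1qb and Mrc1 stayed low there, at -3.54, -3.74 and the floor. Rab35 lost its call between experiments without this cell, with a difference of -1.19, against -1.24 with all cells. The part of stroma, oviduct and macrophage markers in the Rab and SNARE differences was not tested. Scaling every array to the 75th percentile of all probes left none of the 8 probes past the threshold, with every direction kept.

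Genes that act with Rabs and SNAREs were counted on 1 probe each. Between embryos, 0 of 15 tested partner SNAREs and SNARE recycling genes, 0 of 33 Rab exchange factors and GTPase activating proteins, 0 of 15 tethering complex genes, 0 of 4 other Sec1/Munc18 genes and 0 of 3 escort and GDI genes passed, in the same limma F test. At an unadjusted p below 0.05 these counts were 3, 7, 0, 1 and 0, where 29.8% of all tested probes were called. Of 18 Rab effectors 1 passed, Rab11fip1, which links Rab11 to recycling endosomes, and of 9 genes of calcium-triggered exocytosis 1 passed, the complexin Cplx3, against 1.4% of all tested probes. At an unadjusted p below 0.05 there were 5 and 3 in these lists. Cplx3 was at -3.67 and -3.48 in cells 2 and 1 of pair D and -2.77 and -2.92 in those of pair L of experiment 1. Both cells of pair I were at the floor, and so was every cell of experiment 2 but cell 2 of pair G, at -4.07. Its call (adjusted p = 0.0456, limma F test) thus rests largely on cells set to the floor.

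Rab11fip1 was at 1.25 and 1.19 in cells 2 and 1 of pair D, 1.41 and 1.88 in those of pair G and -0.40 and 0.31 in those of pair H of experiment 2. In experiment 1 it was at 0.75 and 1.08 in pair D, 0.66 and 0.77 for pair I and -1.06 and -0.88 in those of pair L (adjusted p = 0.0456, limma F test). Pairs H and L were its lowest pairs in their experiments, as they were for Rab40c. The Rab11fip1 probe was highest in pair G. In that pair 1 Rab11a probe was lowest, but it did not pass between embryos and the other Rab11a probes did not share its gap.

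Between the experiments, 3 of the 33 tested Rab exchange factors and GTPase activating proteins were higher in experiment 2, against 3.95% of all tested probes: Ccz1, part of the exchange factor of Rab7, at 1.52 against 0.30 in experiment 1, and the GTPase activating proteins Evi5, at -0.02 against -1.39, and Tbc1d15, at 0.17 against -1.15. Their differences were 1.22, 1.37 and 1.32 log2 units (adjusted p of 0.0364, 0.0129 and 0.0349 in limma). Of 15 partner SNARE and recycling genes 1 was lower, and of 9 genes of calcium-triggered exocytosis also 1, against 4.15% of all tested probes. Napa, the alpha-SNAP of SNARE recycling, was lower in experiment 2, at -4.10 against -2.86 in experiment 1 (adjusted p = 0.0303 in limma). In experiment 2 it was at the floor in every cell but cell 2 of pair H, at -3.98, so its level there is a bound. Its recycling partner Nsf differed the other way, at -2.69 against the floor, and did not pass (adjusted p = 0.0612). Doc2a, a calcium sensor of exocytosis, was also lower in experiment 2, at -2.86 against -0.93 (adjusted p = 0.0058). In the other lists, effectors, tethers, Sec1/Munc18, escort and GDI genes, none passed between experiments.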

How the data were processed

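RNA of 12 single blastomeres was hybridised to 12 arrays. The authors deposited scanner output with processed signal intensity per spot, made with Feature Extraction, version 9.1.3.1 per the file headers. They also deposited a table of scaled intensities, whose scale and centring are not given in the sources used here, and its log2 was taken. From the intensity, outlier spots were dropped, spots of a probe averaged, and each array divided by its 75th percentile over 5858 probes, those well above background on every array. Values under 0.0574 were set to it before log2. The 16694 probes well above background on 6 or more arrays were tested in limma 3.58.1 (R 4.3.3), with Benjamini-Hochberg adjustment over all of them: embryos within experiments by an F test of 4 contrasts, sisters with embryo as a fixed block, experiments with embryo as a random block. The p-values measure only the spread between these cells. RefSeq matched 132 member probes by accession and 33 by symbol, and 2 kept the file's name. Members with full values passed a test, were among the 8 smallest p between embryos or 4 for cell number, differed over 1.5-fold in every sister pair, or had one of the 6 highest mean signals; some that met this rule are not reported here, but counts include them. Partner genes that passed between experiments, and Rab21, Rab9, Stx12 and Rab32, were chosen after their values were seen. Members and lists were chosen with earlier results of these data known. On simulated data with 100 probes changed 4-fold, 12 were recovered between embryos, 58 for cell number, 82 between experiments and 0 for the interaction. False calls were 0, 6, 5 and 0 in that order. The change between embryos was put in pair D of experiment 1. Simulated cells were drawn independently with the spread between sisters and no floor. They held no other differences between embryos, so the 82 does not carry over to the real comparison of experiments. The alternatives tried were background correction, scaling, floor, filter, blocks, slides, the deposited table and leaving out each cell.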

Additional observations from a re-analysis of the deposited data

Results flagged for a closer look

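Over 47 checks of the 6 cells of an experiment, or the 6 sister distances, 5 single cells stood apart from the rest, where chance gives about 1 in 20. Rab35 in cell 1 of pair I of experiment 1, at 2.92, was below the next cell at 3.58. Rab5a in cell 2 of pair H of experiment 2, at -3.13, was below the next at -2.0. The other 3 were dim probes of experiment 1 just above the floor: Stx3 at -3.58 and Stxbp2 at -3.83, both in cell 2 of pair L, and Snap29 at -3.62 in cell 2 of pair I. The rate of 1 in 20 does not hold for cells set to the floor. For Stxbp2 all other cells of experiment 1 were at the floor, so any cell above it would stand apart.

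In the green channel of experiment 1, from which no signal was taken although the labels name a green dye, up to 3 member probes of a cell were well above background: Rab10, Rab15 and Rab18 in cell 1 of pair D.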

How the results depend on the processing

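Counts of members that passed between embryos depended strongly on the processing. Against 2 in the values reported, there were 33 with normexp background correction (32.0% of members, against 40.1% of all tested probes), 25 with a floor per array (24.3%, against 26.1%), 7 with no filter (4.19%, against 6.7%), 4 with the 75th percentile of all probes (3.88%, against 1.99%), 3 in experiment 2 alone (2.91%, against 4.7%), 2 with quantile normalization, and 0 with the lower common floor, the deposited value table or the filter for all 12 arrays. It was 0 with cell number as a replicate block, in experiment 1 alone, within slides, within slide 2 and within slide 4. Stx7 and the passing Rab40c probe were well above background on 11 arrays each. The filter for all 12 arrays thus left both untested, and its count does not bear on these calls. Leaving out 1 cell gave 0 to 23: 0 without either cell of pair H of experiment 2, and 23 without cell 1 of pair L of experiment 1 (22.3%, against 23.2% of all). At an unadjusted p below 0.05 the counts at 0 in limma were 22, 28, 5, 35, 9, 14, 6 and 14, in the order named. The cell numbers did not pair the samples (correlations of deviations between embryos from -0.0793 to 0.259, 3 of 15 over 0.1), and with that block Stx7 had an adjusted p of 0.076.

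Between experiments, 3 higher became 0 with normexp, the 75th percentile of all probes, the floor per array and the lower common floor, and 2 to 3 with a cell left out. The 5 lower became 1 with normexp, 0 with the 75th percentile of all probes, 2 with the floor per array, 3 with the lower common floor, 2 with the deposited table, and 3 to 6 with a cell left out, 3 without cell 1 of pair L of experiment 1. All 8 kept their direction in each alternative run. Normexp moved the median difference of all tested probes to -0.762, against 0.193, and put 60 of 103 members above it, against 55, while members higher in experiment 2 were 21, against 67. No member passed for cell number or its interaction in any alternative run.

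The sister distance of 0.78 was 0.949 with the 75th percentile of all probes, 1.188 with the floor per array, 1.557 with the lower common floor, 1.377 in the deposited table, 0.629 with no filter, and 0.766 to 0.8 with a cell left out, an alternative added after seeing the data. The between-embryo distance of 0.978 was 1.258, 1.661, 1.971, 1.803 and 0.793 in the same order, and 0.949 to 1.016. Members over 1.5-fold apart in every pair were 1 with quantile normalization or the filter for all 12 arrays, 4 with the lower common floor or the deposited table, and 2 to 4 with a cell left out. The filter for all 12 arrays left Snap91 out of that count, as its probe was well above background on 10 arrays. Snap29 turned to -0.292 with quantile normalization and -0.948 with the 75th percentile of all probes. Rab1, cell 2 minus cell 1, turned to -0.022 with normexp, -0.303 with the 75th percentile of all probes, -0.019 without either cell of pair D of experiment 1 (from there up to 0.489 with other cells left out) and -0.43 in experiment 2 alone. The causes were not tested. Signal close to background limits the dim members: 12 member probes were well above it in no cell.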
